A study of Mus musculus with 8 samples.

Results

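Tslp, the receptors through which Tslp and the type 2 cytokines act, and 3 genes of alternatively activated macrophages were followed in mouse skin. The 10 genes were taken from the table by name, with no threshold on their values: Tslp, Crlf2, Il7r, Il4ra, Il13ra1, Il13ra2, Il31ra, Chil3, Arg1 and Retnla. All 10 were found among the 34745 genes of the deposited table, and all 10 were among the 15684 genes that passed the filter on low counts. RNA sequencing had been run on excised skin, called lesions in the protocol for both groups, of 8 mice aged 16 weeks and labelled male, 4 in each group. Mice of the NcstnΔKC group carried Ncstn flx/flx and Krt14 CreER+/-. They were given tamoxifen from 8 weeks of age, at 20 mg per kg of body weight daily for 5 days and then every 10 days by gavage. In such mice the recombinase acts in keratinocytes and other cells with an active Krt14 promoter. The normal group was given corn oil, and the protocol text assigns it the same alleles, whereas its genotype label reads wildtype. The product of Ncstn, nicastrin, is part of γ-secretase, the protease that cleaves Notch receptors.

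Tslp (thymic stromal lymphopoietin) is a cytokine released by keratinocytes, and it signals through a receptor made of Crlf2 and Il7r. It acts on dendritic cells, T cells, mast cells, basophils and innate lymphoid cells and favours type 2 responses. In these, IL-4 and IL-13 bind receptors that contain Il4ra, and STAT6 downstream of them induces Chil3, Arg1 and Retnla in mouse macrophages. Loss of Notch signalling in the epidermis is known to raise Tslp in mouse skin.

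Total counts ran from 5835422 to 8663753 in the normal libraries and from 11881506 to 12893174 in the NcstnΔKC libraries. Ncstn itself was at 60.7, 61.9, 61.3 and 58.4 CPM (counts scaled to a common library size) in the normal libraries and at 66.8, 50.2, 57.8 and 56.2 CPM in the NcstnΔKC libraries (replicates 1 to 4 in order, here and below), so its level over the whole gene did not separate the groups. Replicates 3 and 4 of both groups held 22304 to 37109 counts of Xist and 13 to 35 counts of Y-linked genes. Replicates 1 and 2 of both groups held 4 to 9 counts of Xist and 904 to 4515 counts of Y-linked genes. Thus 4 of the 8 libraries went against the label male, 2 in each group, and results are given below for the libraries with and without Xist as well. NcstnΔKC replicate 1 stood apart from the other 3 of its group: it was the lowest of them for 7 of the 10 genes, against 37.7% of all genes tested.

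Of the 10 genes, 6 were higher in NcstnΔKC skin, 1 was lower and 3 did not pass the test. The 6 were Tslp, Crlf2, Il7r, Il4ra, Il13ra1 and Chil3, and the 1 was Il31ra. Il13ra2, Arg1 and Retnla did not pass. Each of the 7 that passed also had groups that did not overlap. Over all genes tested, 44.1% passed (21.4% higher and 22.7% lower) and 41.6% had groups that did not overlap (20.9% higher and 20.7% lower), so the share of the 10 must be read against a transcriptome in which many genes differed. The median log2 fold change of the 10 was 1.90, and that of all genes tested was -0.02. Scaling by total counts moved the median of all genes to 0.31 (5400 higher and 2174 lower), and scaling by basal keratinocyte genes moved it to -0.50 (1000 higher and 5821 lower). Of the 13 genes behind the latter scale, 10 were themselves higher and 2 lower, and their sum was higher by 0.47 on the log2 scale. Scaling by them thus moves log2 fold changes down. Under total-count scaling 7 of the 10 genes were higher and 1 lower (48.3% of all genes passed), and with basal keratinocyte genes as the scale 6 were higher and 1 lower (43.5%). Among the other settings, 8 of the 10 passed with DESeq2 (48.1% of all genes), with the authors' FPKM (47.6%), without normal replicate 1 (40.2%), without NcstnΔKC replicate 1 (50.5%) and without that library and normal replicate 2 (50.4%). With the replicate block 7 of the 10 passed (38.1%). The 4 libraries with Xist alone gave 9 of the 10 (51.7% of all genes), whereas the 4 without Xist gave 1 of the 10, Tslp (0.0255% of all genes).

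**Figure D1:**
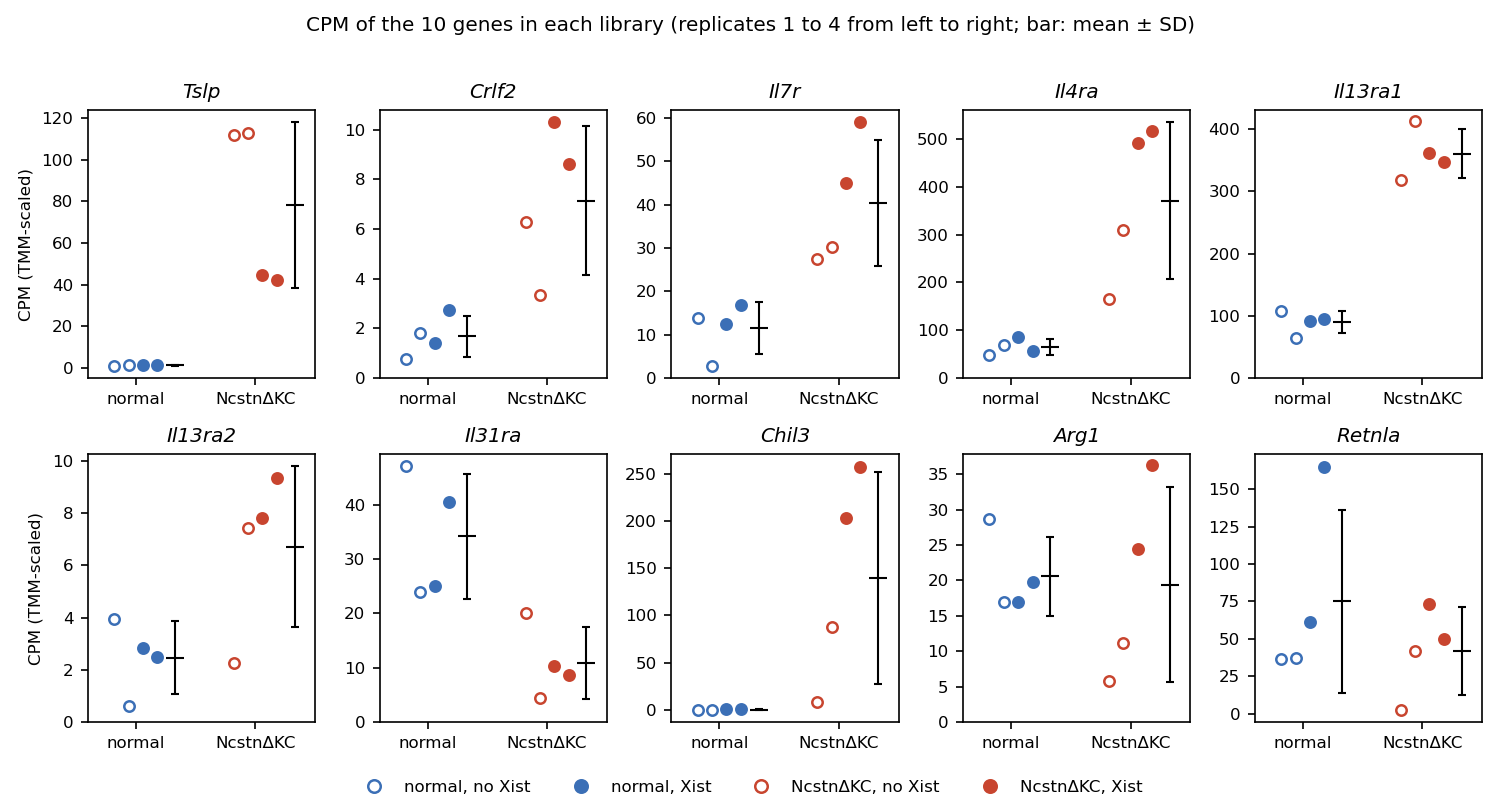
CPM of each of the 10 genes (vertical axis, linear, a separate scale in each panel) in the 4 normal and 4 NcstnΔKC libraries, with replicates 1 to 4 from left to right. Filled points are libraries with Xist and the bar is the mean ± SD of 4. Tslp separates the groups from 1.43 CPM at most to 42.3 CPM at least, whereas the groups of Il13ra2, Arg1 and Retnla overlap.

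Tslp (ENSMUSG00000024379, mm10, chromosome 18, 32815383 to 32819799) was barely counted in normal skin. Normal replicates 1 to 4 held 7, 6, 8 and 11 counts, which are 1.06, 1.21, 1.13 and 1.43 CPM. With so few counts there, the NcstnΔKC libraries helped carry Tslp past the filter. In NcstnΔKC replicates 1 to 4 it was at 112, 113, 44.7 and 42.3 CPM, from 1330, 1651, 647 and 630 counts. The groups did not overlap, and within the NcstnΔKC group the libraries without Xist (replicates 1 and 2) held more than those with it. Mean levels were 1.21 ± 0.161 and 77.9 ± 39.7 CPM (SD, n = 4 each), 64.4-fold apart. The log2 fold change was 5.99 ± 0.46 (SE; 95% interval 4.96 to 7.02; adjusted p = 9.12e-05, edgeR's quasi-likelihood test with Benjamini-Hochberg adjustment over all genes tested).

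The rise of Tslp passed the test under each of the 24 alternative settings, no filter among them (6.12), with log2 fold changes from 5.11 to 6.62. Both ends of that range came from the libraries split by Xist: 5.11 in libraries with Xist (adjusted p = 0.000102, edgeR) and 6.62 in libraries without (adjusted p = 0.0172). The difference of these effects was -1.55 ± 0.34 (SE) in a fit with an interaction term, with an unadjusted p of 0.0025 and an adjusted p of 0.625 (edgeR). No gene of 15684 passed that interaction test after adjustment, while 5.85% had an unadjusted p under 0.05. Tslp was the only 1 of the 10 genes with both Xist-free NcstnΔKC libraries above both others, a pattern that 21.9% of all genes tested also showed. The reverse, with both Xist-free libraries below both others, held for Crlf2, Il7r, Il4ra, Il13ra2, Chil3, Arg1 and Retnla, 7 of the 10, and for 20.6% of all genes tested.

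Likeness to Tslp over the 8 libraries was measured as the root mean square difference of log2 CPM, centred on each gene and with 0.5 added to CPM. Teddm3 came first (0.511), followed by Sprr2g (0.54), a small proline-rich envelope protein, and Lce3b (0.578), a late cornified envelope protein. Sprr2g was at 64.3, 19.7, 20.9 and 24.5 CPM in NcstnΔKC replicates 1 to 4 and at 2 counts in the normal group as a whole. Lce3b was at 36.1, 10.2, 8.23 and 7.05 CPM and at 0 counts in the normal group. At such low counts the measure depends on the 0.5 that was added. Unlike Tslp, both were highest in NcstnΔKC replicate 1 alone.

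Crlf2 (ENSMUSG00000033467, chromosome 5, 109554709 to 109558993), the chain that binds Tslp, was low in both groups and higher in NcstnΔKC skin. It was at 0.759, 1.81, 1.41 and 2.74 CPM in the normal libraries and at 6.29, 3.35, 10.3 and 8.6 CPM in the NcstnΔKC libraries. Normal replicates 1 to 4 held 5, 9, 10 and 21 counts, so the NcstnΔKC libraries helped carry Crlf2 past the filter. The lowest NcstnΔKC library lay just above the highest normal one. This gave a log2 fold change of 2.07 ± 0.46 (SE; 95% interval 1.04 to 3.10; adjusted p = 0.00653, edgeR), from means of 1.68 ± 0.827 and 7.14 ± 3.01 CPM.

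Il7r (ENSMUSG00000003882, chromosome 15, 9506161 to 9529876), which is shared by the receptors of Tslp and IL-7, rose by a similar amount. Its levels were 13.8, 2.82, 12.4 and 16.9 CPM in the normal libraries and 27.4, 30.3, 44.9 and 59 CPM in the NcstnΔKC libraries. Normal replicate 2 was far below the other normal libraries. Il7r had a log2 fold change of 1.80 ± 0.46 (SE; 95% interval 0.76 to 2.84; adjusted p = 0.0129, edgeR), and without normal replicate 2 it was 1.55. In the libraries without Xist alone neither chain passed, with log2 fold changes of 1.93 for Crlf2 (adjusted p = 0.173) and 1.78 for Il7r (adjusted p = 0.208). In whole skin, more cells that carry a receptor and more receptor RNA in each cell cannot be told apart.

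Il4ra (ENSMUSG00000030748, chromosome 7, 125552120 to 125579474), the chain common to both IL-4 receptors and the IL-13 receptor, was the receptor gene with the highest log2 fold change of the 6. It was at 48.6, 68.5, 85.3 and 55.4 CPM in the normal libraries and at 166, 310, 492 and 517 CPM in the NcstnΔKC libraries. Every NcstnΔKC library held more than any normal library, and replicates 3 and 4 held the most. Means of 64.4 ± 16.2 and 371.1 ± 165 CPM gave a log2 fold change of 2.53 ± 0.36 (SE; 95% interval 1.71 to 3.34; adjusted p = 0.00094, edgeR). The antisense gene Gm44876 overlaps its exons and holds 8.86% of its 31-base stretches. Because the strand setting of the counts is not given in the sources used here, reads of the stretches that the pair shares cannot be told apart.

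Il13ra1 (ENSMUSG00000017057, chromosome X, 36112110 to 36171259) pairs with Il4ra on keratinocytes among other cells. Its normal levels were 107, 64.3, 91.3 and 95.2 CPM, and its NcstnΔKC levels were 319, 413, 361 and 348 CPM. The NcstnΔKC libraries lay closer together for this gene than for any other of the 10, in proportion to their mean (360.3 ± 39 CPM). Its log2 fold change was 2.01 ± 0.17 (SE; 95% interval 1.62 to 2.40; adjusted p = 0.000126, edgeR). It was 1.96 in libraries with Xist and 2.10 in those without, the latter with an adjusted p of 0.081.

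Il13ra2 (ENSMUSG00000031289, chromosome X, 147383476 to 147429192), known as a decoy that binds IL-13, did not pass the test. Normal libraries were at 3.95, 0.605, 2.82 and 2.48 CPM, and NcstnΔKC libraries at 2.27, 7.45, 7.81 and 9.34 CPM. NcstnΔKC replicate 1 lay inside the normal range and the other 3 lay above it. Its log2 fold change was 1.42 ± 0.54 (SE; 95% interval 0.21 to 2.63; adjusted p = 0.0573, edgeR). It passed under 7 of 24 alternative settings, among them without NcstnΔKC replicate 1 (1.70, adjusted p = 0.0107) and without normal replicate 1 (1.80, adjusted p = 0.0449).

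Il31ra (ENSMUSG00000050377, chromosome 13, 112522810 to 112580662), which binds the itch cytokine IL-31 together with Osmr, was the 1 gene of the 10 that fell. It was at 47.2, 24, 25.1 and 40.6 CPM in the normal libraries and at 20.1, 4.37, 10.4 and 8.66 CPM in the NcstnΔKC libraries. NcstnΔKC replicate 1 was nearest to the normal range, with no overlap. In the authors' FPKM the groups almost touched, at 5.51 in NcstnΔKC replicate 1 and 5.56 in normal replicate 2. The log2 fold change was -1.66 ± 0.44 (SE; 95% interval -2.64 to -0.67; adjusted p = 0.0145, edgeR), and it was -2.13 without NcstnΔKC replicate 1. A pseudogene on the same strand, Gm3226, overlaps its exons. In libraries without Xist alone the value was -1.54 (adjusted p = 0.28).

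**Figure D2:**
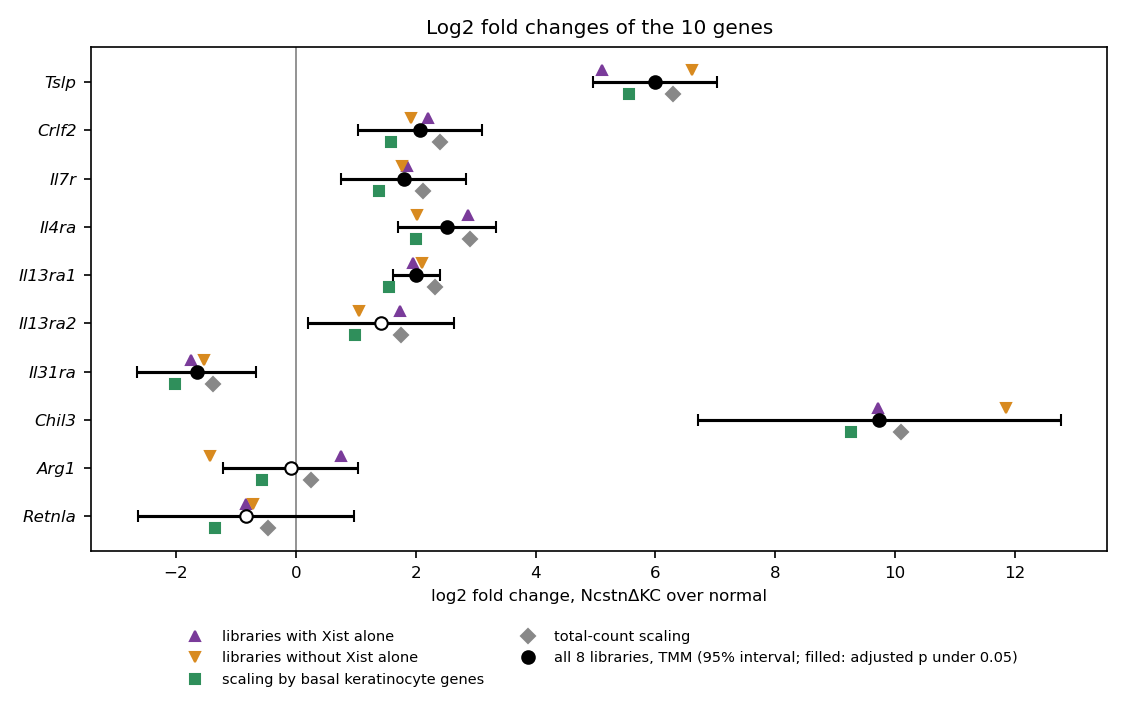
Log2 fold change of each of the 10 genes, NcstnΔKC over normal (horizontal axis). Circles with 95% intervals are the fit of all 8 libraries, filled where the adjusted p is under 0.05, and the other symbols are the libraries with or without Xist alone and 2 other scalings. Arg1 crosses 0 between settings (-1.43 to 0.76), and the other 9 genes keep their side of 0 in all settings drawn.

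Levels per length, as the authors' FPKM, put Il13ra1 above the other 5 receptor genes in both groups. In normal skin its mean was 21.6 ± 5.6 FPKM (SD, n = 4), followed by Il31ra at 8.46 ± 3.47, Il4ra at 6.17 ± 1.09, Il7r at 3.23 ± 1.79, Il13ra2 at 0.865 ± 0.528 and Crlf2 at 0.568 ± 0.287 FPKM. In NcstnΔKC skin Il13ra1 was at 109 ± 17.6, Il4ra at 46 ± 21.8, Il7r at 14.2 ± 5.61, Il31ra at 3.22 ± 1.72, Crlf2 at 3.05 ± 1.35 and Il13ra2 at 2.97 ± 1.44 FPKM. Over all 10 genes in NcstnΔKC skin, neighbours in the order of means overlapped in range at every step but 1, that from Il7r to Il31ra. In normal skin the steps from Retnla to Il13ra1, from Il4ra to Il7r and from Crlf2 to Chil3 did not overlap.

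**Figure D3:**
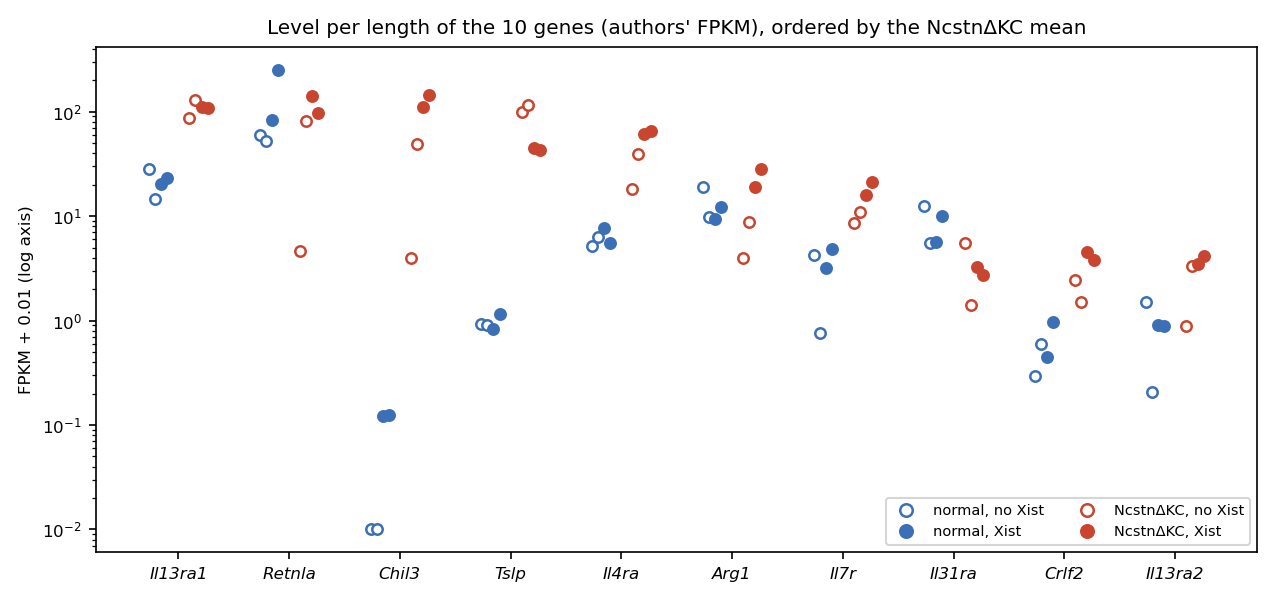
FPKM of the 10 genes in each library (vertical axis, log scale, with 0.01 added so that values of 0 can be drawn), ordered by the NcstnΔKC mean. Il13ra1, Retnla, Chil3 and Tslp have the highest NcstnΔKC means, from 109 to 75.7 FPKM, and Chil3 has the lowest normal mean (0.0565 FPKM).

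Ratios of receptor chains within a library compare partners of 1 receptor. The ratio of Il31ra to Osmr in FPKM was 1.41, 1.05, 0.721 and 1.33 in the normal libraries and 0.385, 0.0695, 0.172 and 0.14 in the NcstnΔKC libraries. The 2 groups did not overlap, since Osmr was higher where Il31ra was lower. The ratio of Il4ra to Il2rg, the partner of Il4ra on blood cells, was 0.841, 1.75, 1.64 and 1.06 against 4.03, 2.54, 4.26 and 3.81. Each of these 2 differences had p = 0.0286 in an exact two-sided permutation test, which with 70 arrangements can give no smaller p, and an adjusted p of 0.0857 over 6 ratios. For Il4ra over Il13ra1 the means were 0.308 ± 0.117 and 0.417 ± 0.19 (exact permutation p = 0.429), and for Crlf2 over Il7r they were 0.298 ± 0.331 and 0.22 ± 0.074 (exact permutation p = 0.971). The normal mean of the latter was carried by replicate 2 (0.789, against 0.0674 to 0.198 in the others), and without that library the ratio was higher in NcstnΔKC skin by 0.77 on the log2 scale (exact permutation p = 0.2).

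Beside Tslp, 8 other ligands of these receptors and type 2 cytokines were listed, of which 3 passed the filter and 2 of these, Il4 and Il33, rose. Over all genes tested 21.4% were higher. Il4, like Chil3 below, passed the filter through the NcstnΔKC libraries alone. Il4 was at 0.304, 0.202, 0.282 and 0.13 CPM in normal libraries and at 1.17, 1.3, 5.25 and 7.86 CPM in NcstnΔKC libraries. These are 6 and 226 counts in all, and the ratio of the summed counts, scaled for library size, was 17.7 (95% counting interval 8.02 to 48.8). Its log2 fold change was 4.03 ± 0.83 (SE, adjusted p = 0.00493, edgeR), and in libraries without Xist alone it was 2.21 (adjusted p = 0.151).

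Il33, an alarmin of epithelial nuclei, was at 27.5, 28, 40.9 and 45.1 CPM in normal and 33.9, 110, 87.3 and 86.6 CPM in NcstnΔKC libraries, with NcstnΔKC replicate 1 inside the normal range. Its log2 fold change was 1.17 ± 0.34 (SE, adjusted p = 0.0215, edgeR), but the call ended with limma-voom (1.06), with basal keratinocyte genes as the scale (0.65, adjusted p = 0.109), without NcstnΔKC replicate 2 (0.98) and without NcstnΔKC replicate 3 (1.13). Il7, the other ligand of Il7r, did not pass (-0.28 ± 0.43, adjusted p = 0.618, edgeR), and its sign turned with total-count scaling (0.06). Il13 had 8 counts in the normal and 42 in the NcstnΔKC group (ratio 2.47, 95% counting interval 1.15 to 6.09, which covers counting error only). The filter left it out of the test, and its groups overlapped. It was at 0.152, 0.605, 0.282 and 0.261 CPM in normal and 0.252, 0.137, 1.31 and 1.21 CPM in NcstnΔKC libraries. Il5 had 1 and 5 counts, Il31 had 0 and 3, and Il25 had 2 and 0. Il9 was at 0 counts in all 8 libraries, which allows up to 0.0365 CPM over the 8.

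Among 9 other receptor chains that share ligands or signalling with these receptors, 8 were tested, 5 rose and 3 did not pass (median 1.002). Of all genes tested, 44.1% passed and 21.4% were higher. Osmr, the partner of Il31ra and itself a chain of the oncostatin M receptor, was at 132, 89.7, 137 and 119 CPM in normal and 204, 247, 238 and 243 CPM in NcstnΔKC libraries. Its log2 fold change of 0.96 ± 0.15 (SE, adjusted p = 0.00143, edgeR) had the opposite sign to that of Il31ra. Csf2rb, the common β chain of the IL-3, IL-5 and GM-CSF receptors, rose by 1.60 ± 0.29. Il1rl1, the receptor of IL-33, rose by 3.17 ± 0.68 (adjusted p = 0.0057), from 3.02 to 9.77 CPM in normal libraries to 8.22, 56.2, 76 and 96.5 CPM in NcstnΔKC replicates 1 to 4. Il9r rose by 1.25 ± 0.40 (adjusted p = 0.0318), a call that ended when any 1 of 6 libraries was left out (values from 1.04 to 1.37), with limma-voom (1.19) or with basal keratinocyte genes as the scale (0.85, adjusted p = 0.129). Il2rg, the partner of both Il7r and Il4ra, rose by 1.04 ± 0.34 (adjusted p = 0.0322). That call ended with basal keratinocyte genes as the scale (0.55), with limma-voom (0.92), with the replicate block (0.94, adjusted p = 0.096) and without any of 6 libraries in turn (0.90 to 1.12).

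Of 14 genes of the JAK-STAT pathway and its feedback, 6 were higher, 1 was lower and 7 did not pass (median 0.69). That share called was near the 44.1% over all genes tested. Stat3, the factor activated by IL-6-type cytokines and oncostatin M, rose by 1.67 ± 0.14 (adjusted p = 0.000104, edgeR), from 114 to 140 CPM in normal libraries to 329 to 434 CPM in NcstnΔKC libraries. Cish, a feedback gene of STAT5, rose by 1.61 ± 0.32 (adjusted p = 0.00401) and Jak2, a kinase of the Tslp receptor, by 0.97 ± 0.24 (adjusted p = 0.0102). Ptpn6, a phosphatase of blood cells, fell by 0.99 on the log2 scale (SE 0.31, adjusted p = 0.0265). The call of Jak2 ended when basal keratinocyte genes set the scale. That of Ptpn6 ended with total-count scaling (-0.65), with no filter (-0.86), with log2(FPKM + 1) (-0.63) and without normal replicate 1, 3 or 4 or NcstnΔKC replicate 2 in turn (-1.03 to -0.82). Stat6, through which IL-4 and IL-13 act, did not pass (0.28, adjusted p = 0.129), though it did with total-count scaling (0.61) and without NcstnΔKC replicate 1 (0.39, adjusted p = 0.0066), and its sign turned on the basal keratinocyte scale (-0.22).

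Chil3 (Ym1, ENSMUSG00000040809, chromosome 3, 106147554 to 106167564) is made by macrophages and neutrophils and resembles chitinases without cleaving chitin. It went from almost no counts to one of the higher levels of the 10. It passed the filter through the NcstnΔKC libraries alone. Normal replicates 1 to 4 held 0, 0, 2 and 2 counts. NcstnΔKC replicates 1 to 4 held 98, 1290, 2939 and 3847 counts, which are 8.22, 88.1, 203 and 258 CPM. The lowest NcstnΔKC library was thus far above any normal one, and the NcstnΔKC libraries also differed widely among themselves.

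The summed counts, scaled for library size, gave a ratio of 961 for Chil3 (95% counting interval 375 to 3530, which covers counting error only). The fitted log2 fold change was 9.74 ± 1.34 (SE; 95% interval 6.71 to 12.77; adjusted p = 0.000796, edgeR), and with so few counts in the normal group it depends on the prior count of the fit. It was 5.41 on the log2(FPKM + 1) scale and 11.85 in libraries without Xist alone (adjusted p = 0.108). Genes nearest to Chil3 over the 8 libraries were Mmp13, a collagenase (0.65), Saa3, an acute-phase protein (1.11), and Mmp8, a neutrophil collagenase (1.14).

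Arg1 (ENSMUSG00000019987, chromosome 10, 24915208 to 24927470), which splits arginine into ornithine and urea, did not pass the test. It was at 28.7, 16.9, 16.9 and 19.8 CPM in the normal libraries and at 5.79, 11.1, 24.5 and 36.3 CPM in the NcstnΔKC libraries. NcstnΔKC replicates 1 and 2 lay below all normal libraries and replicate 4 above them, so that the means of 20.6 ± 5.57 and 19.4 ± 13.7 CPM were close. The log2 fold change was -0.08 ± 0.50 (SE; 95% interval -1.21 to 1.04; adjusted p = 0.903, edgeR). In libraries with Xist it was 0.76 (adjusted p = 0.0326) and in those without it was -1.43 (adjusted p = 0.165). The difference of these effects was 2.16 ± 0.57 (SE), with an unadjusted p of 0.00643 and an adjusted p of 0.777 (edgeR). Pdgfb (0.292), Kynu (0.344) and Col6a2 (0.352) had the patterns nearest to that of Arg1, and none of the 3 passed the test.

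Retnla (Fizz1 or RELMα, ENSMUSG00000061100, chromosome 16, 48842552 to 48844461), a secreted resistin-like protein, also did not pass. Its normal levels were 36.9, 37.1, 61.1 and 165 CPM, and its NcstnΔKC levels were 2.77, 42, 73.5 and 50.2 CPM. The widest departures were a high value in normal replicate 4 and a low one in NcstnΔKC replicate 1. The log2 fold change was -0.83 ± 0.80 (SE; 95% interval -2.64 to 0.97; adjusted p = 0.423, edgeR). Leaving out normal replicate 4 gave -0.03, and leaving out NcstnΔKC replicate 1 gave -0.44. In FPKM Retnla had the highest mean of the 10 genes in normal skin, at 111.9 ± 93.8 FPKM, and was at 80.9 ± 56.6 FPKM in NcstnΔKC skin.

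The stretches before the start sites of Retnla and of Chil3 are set beside each other because both genes are known STAT6 targets, while in this skin Chil3 rose and Retnla did not pass the test. Chil4, the neighbour and near copy of Chil3, is shown with them because it was counted in NcstnΔKC replicates 2 to 4 and in no normal library. Each line is the 250 bases before the start site, 5′ to 3′ on the strand of the gene, from RefSeq on GRCm38.p6 (mm10), where 8 of the 10 genes had an entry that could be used here. Capitals mark a STAT-type palindrome, TTCNNNNGAA (the spacing STAT6 favours) or TTCNNNGAA (the spacing of other STATs), which reads the same on both strands. The windows lie at chr16:48842359-48842608 (Retnla, plus strand), chr3:106167565-106167814 (Chil3, minus strand) and chr3:106219480-106219729 (Chil4, minus strand).
Retnla: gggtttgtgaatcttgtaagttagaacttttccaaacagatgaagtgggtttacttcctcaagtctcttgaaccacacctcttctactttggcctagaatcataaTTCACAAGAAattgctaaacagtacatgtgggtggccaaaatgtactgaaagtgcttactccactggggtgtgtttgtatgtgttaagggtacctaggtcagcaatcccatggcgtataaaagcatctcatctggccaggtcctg
Chil3: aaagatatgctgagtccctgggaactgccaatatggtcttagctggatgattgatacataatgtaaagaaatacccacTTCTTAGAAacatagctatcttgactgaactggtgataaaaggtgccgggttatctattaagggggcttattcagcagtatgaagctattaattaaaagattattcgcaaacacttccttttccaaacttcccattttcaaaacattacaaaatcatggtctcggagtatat
Chil4: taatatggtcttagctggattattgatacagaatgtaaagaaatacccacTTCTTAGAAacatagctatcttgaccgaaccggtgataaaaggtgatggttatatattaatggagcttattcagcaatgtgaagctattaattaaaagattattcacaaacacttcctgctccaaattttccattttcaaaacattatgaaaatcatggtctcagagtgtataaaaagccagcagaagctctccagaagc

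Retnla held TTCACAAGAA from 145 to 136 bases before its start, and it was the only 1 of the 8 genes with the wider spacing in this window. Such a match occurs in 5.85% of 32851 promoter windows of the same length. Chil3 held TTCTTAGAA from 172 to 164 bases before its start and Chil4 the same letters from 200 to 192 bases before. These positions are counted from the RefSeq starts, and the windows of Retnla and Chil4 reach into the deposited spans of those genes. The distances are thus not comparable between genes. Il7r and Il31ra also held the narrower form, which occurs in 7.02% of all windows. The Chil3 and Chil4 windows aligned over 222 columns with 201 identical bases (90.5%). These are matches of letters, and binding was not measured.

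Of the 9 paralogs of the chitinase-like and resistin-like families, 4 passed the filter, and 3 of these rose and 1 fell. Over all genes tested 21.4% were higher and 22.7% lower. Chil4 (Ym2) was at 0 counts in all 4 normal libraries and at 0, 1.84, 33.5 and 39.3 CPM in NcstnΔKC replicates 1 to 4. Against a floor of 3 counts over the normal group its summed level was at least 172-fold higher, although the filter left it out of the test. Chil3 and Chil4 share sequence: 28.9% of the 31-base stretches of Chil3 also occur in Chil4. How reads that map to both were counted is not given in the sources used here, so the split between the pair is uncertain.

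Chil1 (YKL-40), another chitinase-like protein, rose from 2.43, 2.62, 7.76 and 12.1 CPM to 58.2, 104, 78 and 89 CPM (3.69 ± 0.49, adjusted p = 0.000705, edgeR). Chit1, the active chitinase of macrophages, rose by 1.76 ± 0.26 (adjusted p = 0.00108). Retnlg, the resistin-like gene of neutrophils, went from 6 counts in the normal group to 1098 in the NcstnΔKC group (6.32 ± 0.94, adjusted p = 0.00114), through which alone it passed the filter. It shares 5.45% of the 31-base stretches of Retnla. Retn, the resistin of mouse adipocytes, fell by 1.66 on the log2 scale (SE 0.59, adjusted p = 0.0456), from means of 50.03 ± 34.9 to 15.8 ± 7.64 CPM. That call ended with total-count scaling (-1.33), limma-voom (-1.57), no filter (-1.53), log2(FPKM + 1) (-1.14), the replicate block (-1.54, adjusted p = 0.0923) and without any of 7 libraries in turn (-1.83 to -1.06). Chil5 had 4 and 2 counts, Chil6 had 0 and 1, Chia1 had 11 and 3, and Retnlb had 0 in both groups.

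Of 19 other genes used to mark alternative activation, 16 were tested, 6 rose, 1 fell and 9 did not pass (median 0.68). The share called was close to the 44.1% over all genes tested. Clec10a, a lectin of macrophages and dendritic cells, rose by 2.37 ± 0.49 (adjusted p = 0.00516, edgeR), from 26.1, 51, 27.7 and 49.2 CPM to 50, 220, 250 and 277 CPM. The scavenger receptor Msr1 rose by 2.02 ± 0.43 (adjusted p = 0.00571) and the lectin Cd209e by 3.32 ± 0.73 (adjusted p = 0.00652). In Clec10a, Msr1 and Cd209e NcstnΔKC replicate 1 was close to the normal libraries. Pparg, a lipid sensor of macrophages and a master factor of adipocytes, fell by 1.97 on the log2 scale (SE 0.36, adjusted p = 0.00284). It moved beside the adipocyte markers, of which 5 of 8 fell and 0 rose, while 22.7% of all genes tested were lower. Their part in its fall was not tested.

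Of 11 tested genes of classical activation, the counterpart linked to interferon and bacterial products, 6 rose, 0 fell and 5 did not pass (median 2.09). Over all genes tested 44.1% passed and 21.4% were higher. Il6 rose from 0.304, 1.01, 0.424 and 0.13 CPM to 1.51, 8.4, 12 and 17.4 CPM (4.48 ± 0.83, adjusted p = 0.00308, edgeR), and like Il4 it passed the filter through the NcstnΔKC libraries. Ptgs2, the inducible enzyme of prostaglandin synthesis, rose by 3.36 ± 0.51 (adjusted p = 0.00131). Cd80, a costimulatory protein, rose by 2.09 ± 0.32 (adjusted p = 0.00126), and the chemokine Cxcl10 by 2.60 ± 0.55 (adjusted p = 0.00536). Nos2, which competes with Arg1 for arginine, rose by 2.09 ± 0.64 (adjusted p = 0.0256), from a mean of 1.05 ± 0.511 to 4.35 ± 3.31 CPM. Its call ended on the basal keratinocyte scale (1.57), with limma-voom (1.78), with the replicate block (1.84, adjusted p = 0.0612) and without any of 5 libraries in turn (1.54 to 2.07). Cd80 (6, 5, 8 and 10 counts in the normal libraries) and Nos2 (5, 9, 6 and 6) were low in normal skin. The NcstnΔKC libraries thus helped carry both past the filter.

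Among 13 tested genes of arginine transport, the urea cycle and polyamine synthesis, 8 rose, 0 fell and 5 did not pass (median 0.71). Of all genes tested, 44.1% passed and 21.4% were higher. The arginine transporters Slc7a2 and Slc7a1 rose by 1.69 ± 0.31 (adjusted p = 0.003, edgeR) and 1.52 ± 0.33 (adjusted p = 0.00603). Amd1, an enzyme of polyamine synthesis, rose by 1.17 ± 0.19 (adjusted p = 0.00177), and Sat1, which acetylates polyamines, by 0.97 ± 0.30 (adjusted p = 0.0284). Slc7a1, Amd1 and Sat1 did not pass when basal keratinocyte genes set the scale. Sat1 also did not pass without normal replicate 3 (0.91) or normal replicate 4 (0.93).

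Of 17 tested genes reported to control Tslp in the epidermis, 4 rose, 3 fell and 10 did not pass (median 0.02), close to the 44.1% called and the median of -0.02 over all genes tested. Klk6, a serine protease of the epidermis, rose from 4.56, 21.2, 6.49 and 6.64 CPM to 319, 332, 268 and 254 CPM (4.94 ± 0.48, adjusted p = 0.000179, edgeR). F2rl1, which encodes the protease-activated receptor 2, rose by 0.88 ± 0.15 (adjusted p = 0.00208). Hes1, a target gene of Notch, fell by 1.41 on the log2 scale (SE 0.27, adjusted p = 0.00365), from 13.7, 22, 19.6 and 12.5 CPM to 6.71, 3.96, 6.84 and 7.86 CPM. Nfatc1, a factor of the calcium pathway that follows that receptor, fell by 0.57 on the log2 scale (SE 0.13, adjusted p = 0.00748). The call of F2rl1 ended with basal keratinocyte genes as the scale (0.41), and that of Nfatc1 with total-count scaling (-0.25) and log2(FPKM + 1) (-0.22).

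**Figure D4:**
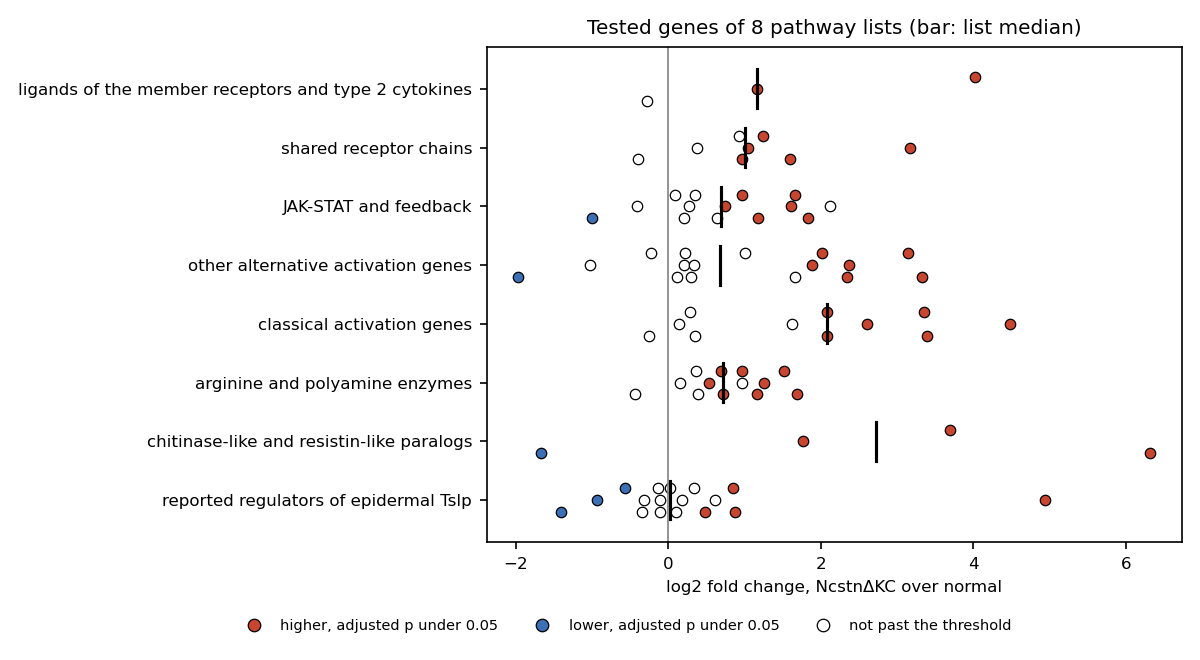
Log2 fold change of each tested gene in 8 lists around the 10 genes (horizontal axis, NcstnΔKC over normal). Red and blue points passed the test as higher or lower, open points did not, and the bar is the median of the list. Medians run from 0.02 for the reported regulators of Tslp to 2.73 for the chitinase-like and resistin-like paralogs.

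In all, 46 genes of these 8 lists passed, 40 higher and 6 lower. In the order of the text, the lists held 3, 8, 14, 4, 16, 11, 13 and 17 tested genes. Over all genes tested 44.1% passed (21.4% higher and 22.7% lower). On the basal keratinocyte scale the lists gave 22 higher and 11 lower, where 43.5% of all genes passed (1000 higher and 5821 lower). In the libraries with Xist alone they gave 56 higher and 11 lower, where 51.7% of all genes passed (4267 higher and 4120 lower). The lists were chosen with earlier results of these data known.

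Markers of cells that make or receive these signals were read beside the 10 genes. Counts of markers that rose or fell, here and below, stand against 21.4% higher and 22.7% lower over all genes tested. Summed levels of the 12 neutrophil markers, Retnlg among them, were 4.86 to 14.3 CPM in normal libraries and 97.2, 169, 278 and 399 CPM in NcstnΔKC replicates 1 to 4. Chil3 had the same order of libraries, but so did the macrophage, mast cell, basophil and T cell sums. All 8 tested neutrophil markers rose. However, Mmp8, Cxcr2, Ltf, Ngp and Retnlg were under 1 CPM in every normal library and passed the filter through the NcstnΔKC libraries alone. S100a8 (2, 8, 1 and 15 counts in the normal libraries) and S100a9 (0, 10, 11 and 26) also needed the NcstnΔKC libraries to pass it. The filter thus largely fixed the count of markers that rose. Elane and Mpo, genes of immature neutrophils, had 7 counts each in the NcstnΔKC group. Summed macrophage markers were 378 to 729 CPM in normal libraries and 438, 1860, 2220 and 2520 CPM in NcstnΔKC replicates 1 to 4. Of these 10 markers, 4 rose, 0 fell and 6 did not pass. Mrc1, also listed for alternative activation, led the sum in NcstnΔKC skin, with a mean of 1002 CPM in a mean sum of 1760 CPM. NcstnΔKC replicate 1, the lowest of its group for Chil3, Il7r and Il4ra, was inside the normal range of that sum. The part of these cells in the levels of Chil3 and of the receptors was not tested.

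**Figure D5:**
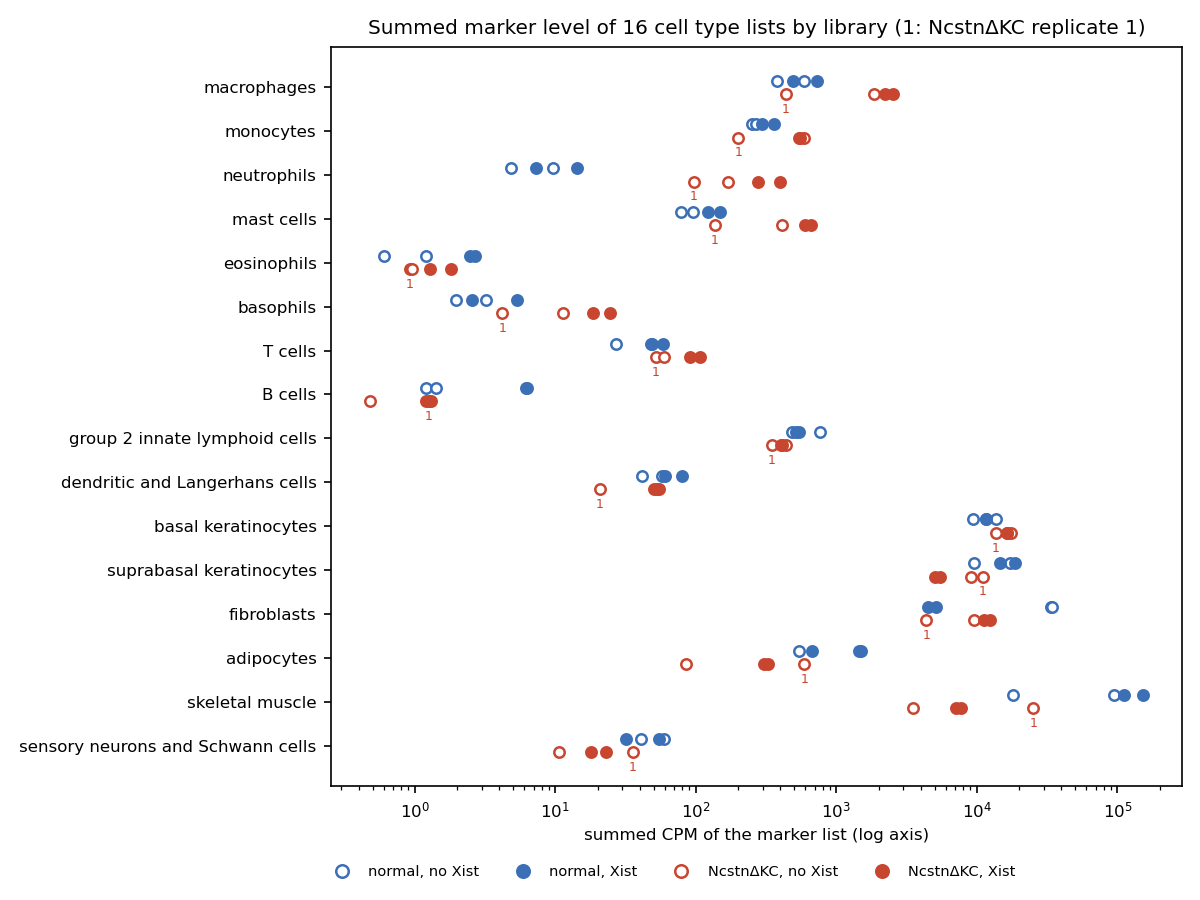
Summed CPM of 16 cell type marker lists in each library (horizontal axis, log scale). Upper points of a line are normal libraries and lower points are NcstnΔKC libraries, with replicate 1 of the latter numbered. Neutrophil sums separate the groups (14.3 CPM at most against 97.2 CPM at least), whereas macrophage and mast cell sums of NcstnΔKC replicate 1 fall inside the normal range.

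Mast cell markers summed to 78.5 to 149 CPM in normal libraries and to 137, 410, 594 and 657 CPM in NcstnΔKC replicates 1 to 4, and 5 of 7 tested genes rose. Those of basophils summed to 1.97 to 5.34 and to 4.2, 11.3, 18.6 and 24.5 CPM, with Mcpt8, a basophil protease, at 0 counts in the normal and 126 in the NcstnΔKC group. T cell markers summed to 27 to 58.2 and to 51.7 to 107 CPM, and 5 of 9 rose. These 3 kinds of cell are known sources of IL-4, and each sum placed NcstnΔKC replicates 3 and 4 highest, as Il4 did, an order that the neutrophil and macrophage sums also had. Their part in the level of Il4 was not tested. Eosinophil markers stayed too low to test (0 of 6 passed the filter), at 0.605 to 2.68 CPM in normal and 0.923 to 1.8 CPM in NcstnΔKC libraries, and B cell markers likewise (0 of 5). Monocyte markers summed to 253 to 358 and 201 to 590 CPM, and 0 of 5 passed.

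Sums for genes listed as markers of group 2 innate lymphoid cells, a list that includes Arg1 and of which keratinocytes express several, were lower in NcstnΔKC skin (347 to 437 CPM against 483 to 771 CPM). Of 6 tested, Il1rl1 and Areg rose, Gata3 fell (-1.01 on the log2 scale, adjusted p = 0.00172, edgeR) and 3 did not pass, and the sum was led by Gata3 (means of 353.8 and 176.1 CPM) and Rora (184.5 and 123.5 CPM). Klrg1 had 5 and 7 counts. Dendritic and Langerhans cell markers summed to 41.5 to 80.3 CPM in normal and 20.7 to 55.1 CPM in NcstnΔKC libraries, and 3 of 5 tested genes fell. Basal keratinocyte markers, beside which the level of Tslp stands, summed to 9320 to 13700 CPM in normal and 13700 to 17500 CPM in NcstnΔKC libraries. Those of suprabasal keratinocytes summed to 9500 to 18800 and 5030 to 11000 CPM. Their part in the level of Tslp was not tested. Markers of sensory neurons and Schwann cells, of interest beside Il31ra, summed to 32 to 58.9 and 10.7 to 35.7 CPM. Of these, Scn10a was at 0 in all 8 libraries, Prph and Nefl had at most 7 counts in a group, and Sox10 and S100b, known in Schwann cells, fell. Their part in the fall of Il31ra was not tested.

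Fibroblast sums were 33500 and 34400 CPM in normal replicates 1 and 2, 4480 and 5150 CPM in normal replicates 3 and 4, and 4380 to 12400 CPM in NcstnΔKC libraries. Adipocyte sums were 541 to 1490 and 85.7 to 592 CPM, and skeletal muscle sums were 18000 to 153000 and 3500 to 25200 CPM. The sums of 3 lists, neutrophils, basal keratinocytes and group 2 innate lymphoid cells, reached the smallest p that 70 arrangements allow (p = 0.0286, exact two-sided permutation test). None of the 16 passed after adjustment over the 16 lists (lowest adjusted p = 0.0914).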

How the data were processed

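RNA of whole skin from 8 mice was sequenced (NcstnΔKC, 4; normal, 4, grouped by their titles). Per the submitters' processing notes, TopHat2 2.0.9, TopHat and HTSeq were used with the builds mm10 and hg38, without roles or settings. The authors deposited raw counts per Ensembl gene. The FPKM values deposited by the authors are scaled to the column totals, not to the sizes used for CPM here. Aligner settings, annotation release, strand and treatment of reads that map to several places are not given in the sources used here.

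From the counts, libraries were scaled by TMM, low genes were removed with filterByExpr, and the quasi-likelihood test of edgeR was run between the groups (version 4.0.16, limma 3.58.1, R 4.3.3; robust, two-sided), with Benjamini-Hochberg adjustment over 15684 genes and a threshold of 0.05. CPM are counts over the TMM-scaled library size, ± is the SD for a level and the SE for a log2 fold change, and list medians are of log2 fold changes. Summed markers and receptor ratios in FPKM were compared by exact permutation tests. Ratios of few counts carry 95% counting intervals, with a floor of 3 counts where a group was at 0, and cover counting error only. Nothing in the labels says that the mice of a group came from separate litters or cages, and p-values measure the spread between these libraries. Python 3.11.15 with Biopython 1.88 read promoters and gene models (GENCODE M21).

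The 10 genes and all lists were chosen with earlier results of these data known. The text names the 10 genes, all ligands and paralogs, the 4 tested genes with the lowest p in each other pathway list, the 3 nearest patterns of Tslp, Chil3 and Arg1 (0.5 added to CPM), and markers beside them. Il2rg, Nos2 and Stat6 were added as partners of the 10. The interaction with Xist and the receptor ratios were chosen after seeing the data. Alternatives were 4 scalings, DESeq2 1.42.0, limma-voom, 2 filters, limma-trend on log2(FPKM + 1), the replicate block, libraries thinned to the smallest, mitochondrial and rRNA-linked genes removed, a covariate for Xist or a split by it, and leaving out libraries. The procedure was tested on simulated data.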

Additional observations from a re-analysis of the deposited data

How the results depend on the processing

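The 7 calls among the 10 genes were steadiest for Tslp, which passed under all 24 alternative settings. Crlf2, Il7r, Il4ra, Il13ra1, Il31ra and Chil3 each passed under 23 and lost the call in the libraries without Xist alone. With those 4 libraries, 2 against 2, the count of all genes was 4, that of the 10 genes was 1 and that of the 8 pathway lists was 0. Leaving out each library in turn gave 5619 to 7994 genes in all, 7 to 8 of the 10 genes and 32 to 52 genes of the pathway lists, and 0 of 16 summed marker lists. Of the whole table, 3360 genes were higher and 3555 lower, against 5351 and 2115 with log2(FPKM + 1), where the median was 0.20.

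Arg1 (-0.08) turned its sign with total-count scaling (0.25), with no filter (0.05), in libraries with Xist alone (0.76), with single libraries left out (-0.57 to 0.22, above 0 without normal replicate 1 or NcstnΔKC replicate 1 or 2), and without NcstnΔKC replicate 1 and normal replicate 2 together (0.14). Il7 (-0.28) did so with total-count scaling (0.06), log2(FPKM + 1) (0.04), libraries without Xist alone (0.47) and with single libraries left out (-0.51 to 0.15, above 0 without normal replicate 3). The cause was not tested. Il13ra2 passed with total-count scaling (1.76, adjusted p = 0.0299), DESeq2's Wald test (1.44, adjusted p = 0.0216), limma-trend on log2(FPKM + 1) (1.04, adjusted p = 0.031), in libraries with Xist alone (1.73, adjusted p = 0.00259), and without normal replicate 1, NcstnΔKC replicate 1, or the latter with normal replicate 2 (1.41).

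With the replicate block, 5981 genes of the whole table, 7 of the 10 genes and 39 genes of the pathway lists passed, and the calls of Retn, Il2rg (0.94) and Nos2 (1.84) ended. With limma-voom, Il1rl1, Cd209e, Cxcl10, Il33, Il9r, Il2rg, Nos2 and Retn did not pass. Stat6 (0.28) turned to -0.22 on the basal keratinocyte scale. Sox10 did not pass with log2(FPKM + 1) or in either set of libraries split by Xist. Same-numbered libraries correlated at -0.024, -0.037, -0.02 and 0.217 in their deviations from the group means, so the numbers were not taken as pairs. Fewer than 12 counts per normal library limit the levels of Tslp, Chil3, Il4 and the other ligands but Il33 and Il7 in normal skin.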
